A study of Mus musculus with 12 samples.

Results

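Transcripts of 10 genes of the BCL-2 family were followed in CD8+ T cells before antigen, after antigen and after antigen with costimulation. The genes were chosen by symbol from the 55536 annotated genes of the count table. They are the pro-survival genes Bcl2, Bcl2l1, Mcl1, Bcl2a1b and Bcl2a1d, the BH3-only genes Bcl2l11, Bbc3 and Pmaip1, and the effectors Bax and Bak1. All 10 were found in the count and FPKM tables, and all 10 were among the 18817 genes that passed edgeR's filter on low counts.

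The cells came from OT-1 Tg C57BL/6J mice, whose transgenic T cell receptor (OT-I) recognizes a peptide of ovalbumin. The methods describe the OT-I mice as deficient in Rag1 or Rag2, and the labels do not say which applied to a library. In the Ag group, 500000 of these cells were transferred into each C57BL/6J recipient, which then received 100 µg of the peptide and control rat IgG. The Ag+Costim recipients received the peptide with agonist antibodies against OX40 (CD134, clone OX-86) and 41BB (CD137, clone 3H3), a pair of costimulatory receptors of the tumour necrosis factor family. Transferred cells were recovered from spleen and lymph nodes by a sort on CD8, CD45.1 and the Vα2 and Vβ5 chains of the OT-I receptor, to a stated purity above 95%. The labels give 4 days to collection, and the methods give 3 days and 12 hours. Ag and Ag+Costim were separate recipients with the same time to collection. A rise or fall below is thus a difference between groups and not a course in time. Naive cells were purified from OT-I mice without transfer, so Naive differs from the other groups in transfer and host as well as in antigen. Mice of both sexes aged 1.5 to 8 months were used. All the T cells carry the 1 transgenic receptor, and whether each library came from 1 mouse or a pool is not stated in the labels, so p-values measure the spread between these libraries. There were 2 Naive, 5 Ag and 5 Ag+Costim libraries, and their estimated counts summed to between 24006053 (Ag 4) and 49294934 (Ag+Costim 3). Each library other than Ag 4 held at least 40028682 counts. A count of 3 in a library corresponded to 0.0609 to 0.125 CPM, the counts of a gene scaled to a common library size.

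The BCL-2 family decides whether a cell opens the mitochondrial outer membrane and dies by apoptosis. BAX and BAK form the pores, the pro-survival proteins BCL-2, BCL-XL (from Bcl2l1), MCL-1 and A1 (from the Bcl2a1 genes) hold them in check, and the BH3-only proteins BIM (from Bcl2l11), PUMA (from Bbc3) and NOXA (from Pmaip1) bind and neutralize the pro-survival proteins. In T cells, BCL-2 is known to maintain naive cells downstream of IL-7, A1 and BCL-XL are known to be induced by activation and costimulation through NF-κB, and BIM is known to drive the death of T cells after a response.

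The mouse genome holds several copies of Bcl2a1 on chromosome 9 (GRCm38), and their sequences bear on every count of Bcl2a1b and Bcl2a1d. Bcl2a1d lies at 88723285 to 88731914, Bcl2a1a at 88956900 to 88962419 and Bcl2a1b at 89199209 to 89207827. Each has a coding sequence of 516 bases without the stop codon in GENCODE vM21, and the 3 sequences differ at 12 positions. Coding bases 1 to 90, 5′ to 3′, are shown with the 6 positions at which the copies differ in capitals.
Bcl2a1a: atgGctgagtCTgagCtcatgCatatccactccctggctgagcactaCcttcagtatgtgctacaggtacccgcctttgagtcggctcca
Bcl2a1b: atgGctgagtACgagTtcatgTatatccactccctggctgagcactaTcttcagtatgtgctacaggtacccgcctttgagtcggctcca
Bcl2a1d: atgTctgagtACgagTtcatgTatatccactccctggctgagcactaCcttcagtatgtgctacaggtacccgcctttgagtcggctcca
In coding sequence, Bcl2a1b and Bcl2a1d were 98.84% identical, and Bcl2a1a and Bcl2a1b were 97.87% identical. Of the 718 windows of 100 bases, the length of a read, in the Bcl2a1b transcript, 223 (31.1%) also occurred in another of the 3 copies. For Bcl2a1d the share was 54.7% of 764 windows and for Bcl2a1a 43.5% of 720. Reads from these windows cannot be told apart by sequence, so values of single copies are uncertain and values for the summed copies are given beside them. Bcl2a1c, another copy on chromosome 9, held at most 3 counts in any library.

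The sorted cells carried T cell transcripts in all groups. All 9 genes of a T cell marker list exceeded 1 CPM in each group, and their summed CPM was 11842 and 12561 in Naive, 10206 to 14588 in Ag and 6045 to 8292 in Ag+Costim. Cd8a, which encodes a chain of the CD8 co-receptor, measured 776 and 861 CPM in Naive, 935 to 1302 in Ag and 504 to 609 in Ag+Costim. Transcripts of other cells were also present. The 8 myeloid markers summed to 35.6 and 114 CPM in Naive, 53.5 to 181 in Ag and 84.3 to 136 in Ag+Costim, with Lyz2 the most abundant, and 7 of the 8 exceeded 1 CPM on average in each group. The 6 B cell markers, mostly Ighm, summed to a median of 1053 CPM in Naive, 1606 in Ag and 705 in Ag+Costim, and Pax5 was at 0 in both Naive libraries. The 6 erythroid markers, led by Hba-a1, reached 6379 CPM in Ag 4 and lay between 14.5 and 223 in Ag+Costim. The 6 proliferation genes summed to a median of 202 CPM in Naive, 824 in Ag and 2949 in Ag+Costim. The 4 Y-linked genes summed to 276 and 2.23 CPM in Naive 1 and 2. They summed to 201 and 203 CPM in Ag 1 and 2 and 146 and 152 in Ag+Costim 1 and 2, and to at most 3.68 CPM in replicates 3 to 5 of either group, so replicates 1 and 2 stand apart from 3 to 5 in both antigen groups. In bulk libraries, fewer cells of a type and less RNA per cell cannot be told apart.

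The levels of the members were compared per transcript length in FPKM, a fragment count scaled for length and library size, as the authors computed it. Bax had the highest mean FPKM of the 10 in all 3 groups, at 231 ± 11.1 (SD, n = 2) in Naive, 160.0 ± 13.4 (SD, n = 5) in Ag and 159 ± 13.4 (SD, n = 5) in Ag+Costim. In Naive, Bax was followed by Bcl2 at 77.2 ± 1.32 FPKM, Mcl1 at 49.7 ± 1.64 and Bbc3 at 35.9 ± 1.33, whose ranges over libraries did not overlap. Bcl2a1b came next in Naive at 10.7 ± 0.844 FPKM. Below it Bcl2l11 (7.92 ± 1.03 FPKM), Pmaip1 (7.33 ± 0.434) and Bcl2l1 (7.18 ± 1.35) did not differ beyond their ranges, and Bcl2a1d (4.06 ± 0.658) and Bak1 (1.09 ± 0.110) were lowest. In Ag, Bcl2a1b had rank 2 at 142 ± 22.1 FPKM, with a range that overlapped that of Bax. Mcl1 (83.2 ± 7.87 FPKM) and Bcl2a1d (77.3 ± 10.5) followed with overlapping ranges, then Bcl2 (21.0 ± 3.16), then Pmaip1 (12.4 ± 2.71), Bcl2l1 (9.57 ± 1.48) and Bcl2l11 (7.95 ± 1.28), each overlapping its neighbour. Bbc3 (3.36 ± 0.591 FPKM) and Bak1 (0.833 ± 0.398) were lowest. In Ag+Costim, Bcl2a1b (89.0 ± 12.9 FPKM) and Bcl2a1d (71.6 ± 11.8) came after Bax with overlapping ranges, above Mcl1 at 28.9 ± 6.23. Pmaip1 (19.4 ± 2.37 FPKM) and Bcl2l1 (19.3 ± 0.932) overlapped and stood above Bcl2 (9.42 ± 1.93). Bcl2l11 (4.15 ± 0.601 FPKM), Bbc3 (2.95 ± 0.697) and Bak1 (1.94 ± 0.414) were lowest, each overlapping its neighbour. Thus Bcl2 had rank 2 of the 10 in Naive, rank 5 in Ag and rank 7 in Ag+Costim. On counts per kilobase of all annotated exons, Mcl1 stood above Bcl2 in Naive, Bcl2a1b above Bax in Ag, and Pmaip1 above Bcl2 in Ag with overlapping ranges, so Bcl2 had ranks 3, 6 and 7 on that scale.

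Antigen was accompanied by a turnover among the pro-survival transcripts. The summed FPKM of Bcl2, Mcl1, Bcl2l1 and the 3 Bcl2a1 copies was 149 and 152 in the Naive libraries, 335 to 417 in Ag and 216 to 290.2 in Ag+Costim, 3 ranges that did not overlap. Bcl2 made up 51.2% of this sum in both Naive libraries, 4.64% to 7.91% in Ag and 2.72% to 5.61% in Ag+Costim. The Bcl2a1 copies together made up 10.04% and 12.02% in Naive, 64.0% to 73.5% in Ag and 74.1% to 78.1% in Ag+Costim. Mcl1 went from 32.6% and 33.4% in Naive to between 19.9% and 27.5% in Ag and between 10.3% and 13.6% in Ag+Costim, and Bcl2l1 had its highest share, 6.53% to 9.45%, in Ag+Costim. On counts per kilobase of exons, a scale added after seeing the data, Bcl2 made up less, with 36.8% and 37.4% in Naive, 2.50% to 4.29% in Ag and 1.66% to 3.53% in Ag+Costim, and Mcl1 was the largest in Naive at 43.6% and 45.6%. The Bcl2a1 copies together held 13.8% and 16.1% in Naive, 66.5% to 75.9% in Ag and 79.1% to 82.0% in Ag+Costim on that scale. There Bcl2l1 held 2.98% and 3.86% in Naive, 1.07% to 1.88% in Ag and 3.71% to 5.38% in Ag+Costim. Its ranges in Naive and Ag+Costim thus overlapped on that scale. These shares describe transcripts, not proteins, and were not tested.

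**Figure D1:**
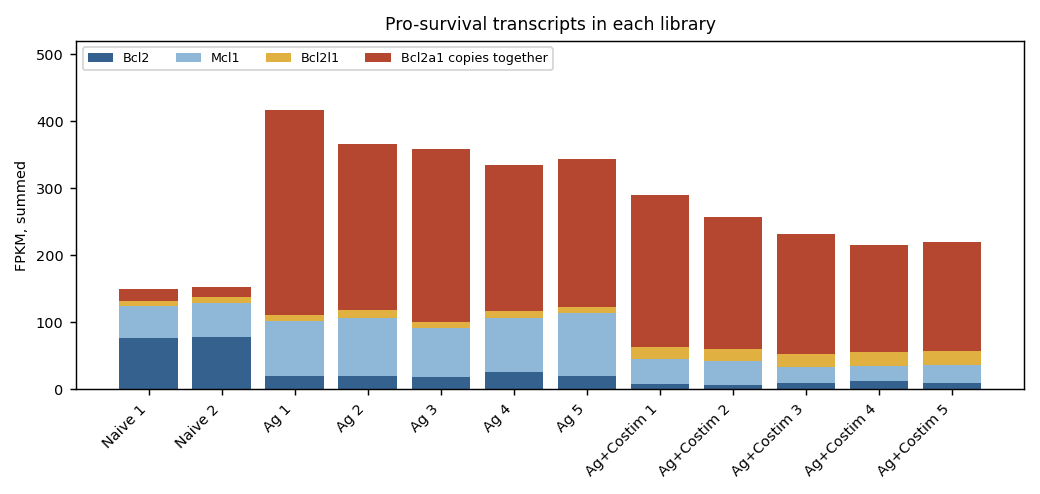
Stacked bars show the summed FPKM of the pro-survival genes (y axis) in each of the 12 libraries (x axis), split into Bcl2, Mcl1, Bcl2l1 and the copies Bcl2a1a, Bcl2a1b and Bcl2a1d together. On this scale Bcl2 is the largest segment in the 2 Naive libraries (on counts per kilobase of exons it is Mcl1), and the Bcl2a1 copies are the largest in the 10 others.

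Between Ag and Naive, 8 of the 10 members were called by edgeR's quasi-likelihood test (5 higher, 3 lower), where 46.7% of the 18817 genes tested were called, 24.2% in the higher and 22.5% in the lower direction. Between Ag+Costim and Ag, 7 of 10 were called (3 higher, 4 lower), against 53.1% of all genes, 26.6% higher and 26.5% lower. Between Ag+Costim and Naive, all 10 were called (5 higher, 5 lower), against 52.3% of all genes, 26.9% in the higher and 25.4% in the lower direction. Over the members, the median log2 fold change was 0.47, -0.10 and 0.30 in these 3 comparisons, beside 0.016, -0.049 and -0.024 over all genes. The median size of the change, without its sign, was 0.92, 0.81 and 1.62 for the members and 0.77, 0.71 and 0.90 for all genes. The libraries of the groups did not overlap for 9, 6 and 10 members, which was the case for 56.4%, 39.8% and 66.0% of all genes. The comparisons share libraries and are not independent. Under upper-quartile scaling the median of all genes in Ag+Costim against Ag shifted to -0.24 and the split of calls from 5006 higher and 4979 lower to 4056 higher and 6338 lower, and the same 3 higher and 4 lower members were called.

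**Figure D2:**
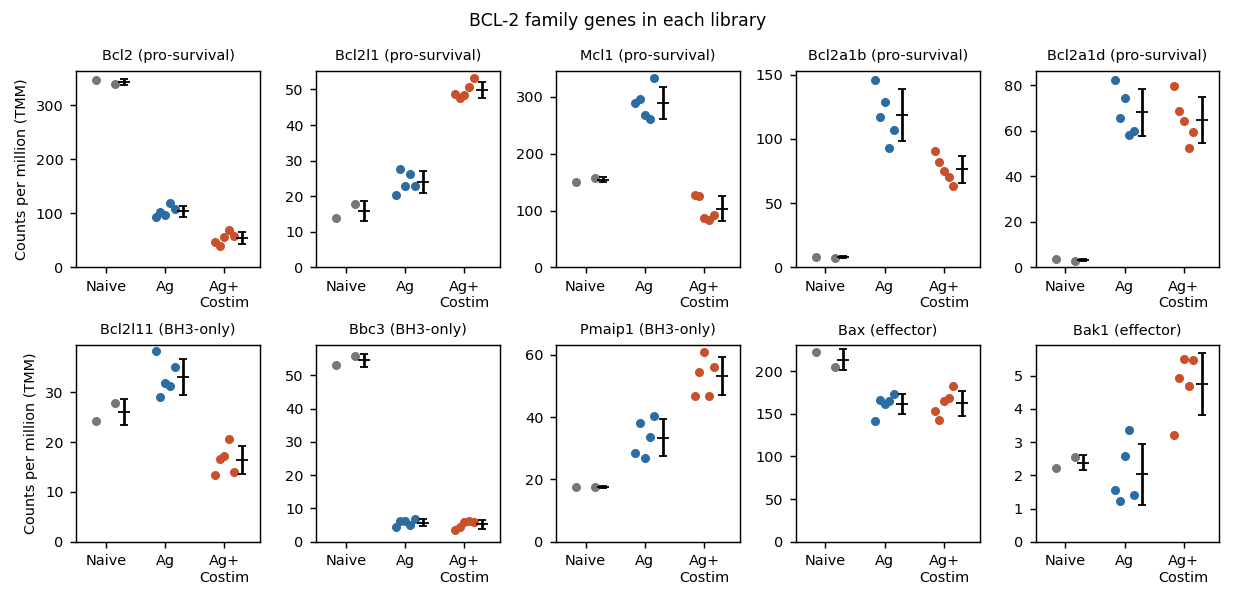
Each panel gives 1 gene, with CPM scaled by TMM on a linear y axis that starts at 0 and the 3 groups on the x axis. Points are libraries (2 Naive, 5 Ag, 5 Ag+Costim), and black marks are the mean and SD of a group. Bcl2 and Bbc3 are highest in Naive, Mcl1 is highest in Ag, and Bcl2l1 is highest in Ag+Costim.

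Bcl2 (ENSMUSG00000057329.7, chromosome 1, 106538178 to 106714274), which encodes the founding pro-survival protein, was lower in Ag than in Naive and lower still in Ag+Costim. Its level was 347 and 339.5 CPM in the Naive libraries. The 5 Ag libraries measured 94.1, 102, 96.3, 119 and 107 CPM, and the 5 Ag+Costim libraries 46.3, 39.2, 55.7, 68.4 and 58.8 CPM. Every Ag library lay below both Naive libraries, and every Ag+Costim library lay below every Ag library. From Naive to Ag its log2 fold change was -1.72 (SE 0.16, edgeR's adjusted p = 2.46e-06) and from Ag to Ag+Costim -0.95 (SE 0.13, edgeR's adjusted p = 3.69e-05). Ag+Costim stood 6.39-fold below Naive. The gene shares 33103 bases with an antisense gene, D630008O14Rik, and whether counting used strand is not given. On its own strand, Bcl2 shares 2087 bases with Gm37053 and 136 with Mir3473f.

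Bcl2l1 (ENSMUSG00000007659.18, chromosome 2, 152780668 to 152831728) encodes BCL-XL, and it was higher in Ag than in Naive and higher still in Ag+Costim. The Naive libraries measured 13.9 and 17.8 CPM. Ag measured 20.2, 27.7, 22.8, 26.3 and 22.8 CPM, and Ag+Costim measured 48.9, 47.7, 48.4, 50.6 and 53.3 CPM. No libraries overlapped between the groups, and the Ag+Costim libraries varied little among themselves (SD 2.24). The log2 fold change was 0.60 (SE 0.14, edgeR's adjusted p = 0.00393) in Ag against Naive and 1.05 (SE 0.11, edgeR's adjusted p = 2.07e-06) in Ag+Costim against Ag. Without Naive 1, the first of these was 0.42 with an adjusted p of 0.0872, and on unfiltered log2(FPKM + 1) it was 0.37 with limma's adjusted p of 0.0599.

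Mcl1 (ENSMUSG00000038612.16, chromosome 3, 95658788 to 95663176), which encodes a pro-survival protein of short half-life, went up with antigen and down with costimulation. It measured 151 and 157 CPM in Naive, then 289, 296, 268, 261 and 334 in Ag and 128, 126, 87.1, 84.0 and 92.8 in Ag+Costim. The Ag libraries lay above all others and the Ag+Costim libraries below all others. Within Ag+Costim, replicates 1 and 2, those with Y-linked transcripts, were the highest, and with a covariate for these transcripts the log2 fold change of Mcl1 against Ag was -1.48. This split was not particular to Mcl1. The same replicates were the highest of Ag+Costim for Bcl2a1b and Bcl2a1d and the lowest for Bcl2, Bbc3 and Bax. For Bcl2l1, Bcl2l11, Pmaip1 and Bak1 they did not stand apart. Its log2 fold change was 0.91 (SE 0.18, edgeR's adjusted p = 8.91e-04) in Ag against Naive and -1.48 (SE 0.13, edgeR's adjusted p = 6.70e-07) in Ag+Costim against Ag. Against Naive, Ag+Costim was lower by 0.57 on the log2 scale (log2 fold change -0.57, edgeR's adjusted p = 0.00999), and without Naive 2 that p was 0.0692.

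Bcl2a1b (ENSMUSG00000089929.1) and Bcl2a1d (ENSMUSG00000099974.1) had the largest increases among the 10 members in Ag. Bcl2a1b measured 8.42 and 7.48 CPM in Naive, 146, 117, 129, 93.1 and 107 in Ag and 90.6, 81.9, 74.9, 70.4 and 63.3 in Ag+Costim. Every Ag library exceeded both Naive libraries by more than 10-fold, and the Ag+Costim libraries lay between. Bcl2a1d measured 3.56 and 2.81 CPM in Naive, 82.3, 65.5, 74.2, 57.9 and 60.0 in Ag and 79.4, 68.5, 64.3, 52.2 and 59.2 in Ag+Costim, where the antigen groups overlap. In Ag against Naive, Bcl2a1b was 14.9-fold higher (log2 fold change 3.90, SE 0.21, edgeR's adjusted p = 4.83e-08) and Bcl2a1d 21.3-fold higher (log2 fold change 4.41, SE 0.23, edgeR's adjusted p = 3.03e-08). In Ag+Costim against Ag, Bcl2a1b fell by 0.64 on the log2 scale (SE 0.13, edgeR's adjusted p = 7.94e-04). Bcl2a1d had a log2 fold change of -0.07, with a 95% interval of -0.36 to 0.22 and an adjusted p of 0.675. With the reads of the 3 copies summed, the log2 fold change was 4.08 (SE 0.21) in Ag against Naive and -0.38 (SE 0.12, edgeR's adjusted p = 0.0175) in Ag+Costim against Ag. Within that sum, the share of Bcl2a1b was 62.3% and 65.1% in Naive, 53.5% to 56.6% in Ag and 44.4% to 50.1% in Ag+Costim, and that of Bcl2a1d was 24.5% and 26.3%, 31.7% to 33.2% and 37.1% to 41.5%. How StringTie divided reads that fit several copies bears on these shares and was not tested. Bcl2a1b also shares 8449 bases with Gm29094, a read-through gene on the same strand, which held 2 to 234 counts per library beside 356 to 6666 for Bcl2a1b. Bcl2a1d lies wholly opposite the antisense gene Gm10634, over 8630 bases.

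Myeloid cells express Bcl2a1 genes as well, so their markers are given beside these values. The transferred groups were sorted on CD8, CD45.1, Vα2 and Vβ5 to a stated purity above 95%. Lyz2 measured 36.8 and 14.2 CPM in Naive, 113, 79.2, 26.3, 136 and 43.6 in Ag and 53.8, 57.8, 65.9, 68.0 and 47.0 in Ag+Costim. Fcer1g measured 7.08 and 6.68 CPM in Naive, 9.07 to 18.7 in Ag and 5.19 to 15.0 in Ag+Costim. Cd14 measured 0.226 and 0.105 CPM in Naive, 0.237 to 1.47 in Ag and 0.177 to 0.729 in Ag+Costim. Csf1r measured 5.41 and 5.54 CPM in Naive, 5.09, 8.06, 4.71, 1.42 and 8.35 in Ag and 10.9, 5.48, 14.0, 34.8 and 16.1 in Ag+Costim, so 4 of 5 Ag+Costim libraries exceeded every Ag library. Adgre1 measured 3.60 and 1.15 CPM in Naive, 0.870 to 3.13 in Ag and 2.15 to 9.10 in Ag+Costim, where 4 of 5 libraries also exceeded every Ag library. Itgam measured 0.967 and 1.24 CPM in Naive, 1.27 to 3.32 in Ag and 2.30 to 31.7 in Ag+Costim, where 3 of 5 libraries exceeded every Ag library. The myeloid markers therefore did not move together, since Csf1r, Adgre1 and Itgam were higher in most Ag+Costim libraries and Lyz2, Fcer1g and Cd14 were highest in Ag libraries. S100a8 was highest in Naive 1 at 31.2 CPM. The 6 dendritic cell markers summed to 20.9 and 35.5 CPM in Naive, 186 to 275 in Ag and 92.4 to 277 in Ag+Costim, and they did not move together. H2-Ab1, an MHC class II gene, measured 19.9 and 9.53 CPM in Naive, 107 to 171 in Ag and 42.0 to 83.0 in Ag+Costim. H2-Aa, another, measured 9.22 and 4.14 CPM in Naive, 61.5 to 92.4 in Ag and 19.6 to 44.7 in Ag+Costim, so both were highest in Ag and lower in Ag+Costim, the order of the Bcl2a1b levels. Itgax measured 1.63 and 1.60 CPM in Naive, 6.78 to 24.6 in Ag and 25.6 to 141 in Ag+Costim. The part of other cells in the Bcl2a1 values was not tested.

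Bcl2l11 (ENSMUSG00000027381.16, chromosome 2, 128126038 to 128162547) encodes BIM, a BH3-only protein that binds all pro-survival members. It measured 24.2 and 27.9 CPM in Naive, 38.3, 29.0, 31.8, 31.4 and 35.2 in Ag and 13.4, 16.6, 17.2, 20.6 and 14.1 in Ag+Costim. The Ag+Costim libraries lay below all others. The log2 fold change in Ag+Costim against Ag was -1.02 (SE 0.13, edgeR's adjusted p = 1.58e-05), a 2.02-fold lower level. In Ag against Naive, the log2 fold change of 0.35 (95% interval -0.03 to 0.73) did not pass (edgeR's adjusted p = 0.108), although the libraries did not overlap. With an offset for gene length, taken over all annotated exons, it was 0.72 and passed. In FPKM it was -0.001, so neither a rise nor its absence is shown. Ag+Costim was lower than Naive by 0.67 on the log2 scale (log2 fold change -0.67, edgeR's adjusted p = 0.00367), with an adjusted p of 0.0609 without Naive 2.

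Bbc3 (ENSMUSG00000002083.13, chromosome 7, 16308393 to 16318205), which encodes PUMA, had the largest fall among the 10. It measured 53.1 and 55.9 CPM in Naive, 4.30, 6.11, 6.34, 4.98 and 6.73 in Ag and 3.37, 4.32, 6.07, 6.21 and 6.00 in Ag+Costim. Both antigen groups stood far below Naive and overlapped each other. Ag was 9.56-fold lower than Naive (log2 fold change -3.26, SE 0.22, edgeR's adjusted p = 1.94e-07). Ag+Costim against Ag had a log2 fold change of -0.13 (95% interval -0.55 to 0.28, adjusted p = 0.567).

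Pmaip1 (ENSMUSG00000024521.8), which encodes NOXA, a BH3-only protein that binds MCL-1 and A1, was higher in Ag than in Naive and higher still in Ag+Costim. It measured 17.4 and 17.7 CPM in Naive, 28.3, 38.1, 26.8, 33.6 and 40.3 in Ag and 46.9, 54.4, 61.0, 46.9 and 56.0 in Ag+Costim, and no groups overlapped. Its level changed on the log2 scale by 0.93 (SE 0.17, edgeR's adjusted p = 6.62e-04) in Ag against Naive and by 0.67 (SE 0.12, edgeR's adjusted p = 4.96e-04) in Ag+Costim against Ag. Among the 3 BH3-only genes, Bbc3 held 69.4% and 71.1% of the summed FPKM in Naive, while Pmaip1 held 45.03% to 56.5% in Ag and 66.5% to 75.6% in Ag+Costim. Their sum was 49.2 and 53.1 FPKM in Naive, 19.7 to 28.1 in Ag and 22.4 to 29.8 in Ag+Costim.

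Bax (ENSMUSG00000003873.11, chromosome 7, 45461697 to 45466898), a pore-forming effector, fell with antigen by a small amount and did not pass the test between the antigen groups. It measured 223 and 204 CPM in Naive, 141 to 174 in Ag and 142 to 182 in Ag+Costim. Its change on the log2 scale was -0.40 (SE 0.11, edgeR's adjusted p = 0.00826) in Ag against Naive, and without Naive 1 its adjusted p was 0.0959. In Ag+Costim against Ag it was 0.005 (95% interval -0.19 to 0.20, adjusted p = 0.970), so a change of more than 0.20 in size lay outside the interval. With an offset for length it was 0.25 (adjusted p = 0.0256), and with upper-quartile scaling -0.19 (adjusted p = 0.0788). Bax shares 915 bases with Gm45808 on the same strand.

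Bak1 (ENSMUSG00000057789.14, chromosome 17, 27019810 to 27029009), the other effector, had the lowest level and the least precise changes. It held 55 to 257 counts per library and measured 2.22 and 2.54 CPM in Naive, 1.56, 1.23, 2.59, 3.36 and 1.39 in Ag and 3.20, 4.92, 5.51, 4.70 and 5.48 in Ag+Costim. Ag 4 overlapped the Ag+Costim libraries. The log2 fold change in Ag+Costim against Ag was 1.24 (SE 0.28, edgeR's adjusted p = 0.00206). Ag against Naive gave -0.24 (95% interval -1.07 to 0.58, adjusted p = 0.613), and Ag+Costim against Naive gave 1.00 with an adjusted p of 0.0424, a call that was lost in 7 of 11 other settings and on leaving out any of 6 of the 12 libraries. The gene lies wholly opposite Ggnbp1, which held 83 to 1249 counts per library and measured 25.7 and 26.1 CPM in Naive, 1.93 to 13.8 in Ag and 13.9 to 22.6 in Ag+Costim. Reads from stretches that both genes transcribe cannot be told apart without strand, so the Bak1 values are uncertain. The overlap is one of whole gene spans with introns, and how far their exons overlap was not tested.

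**Figure D3:**
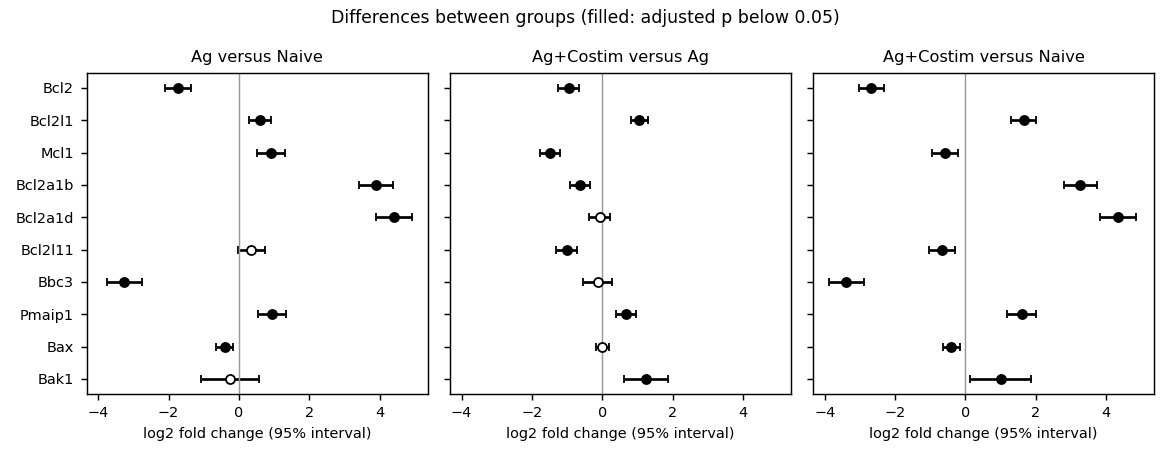
Points are log2 fold changes (x axis, shared scale) of the 10 genes (y axis) in 3 comparisons, with 95% intervals as bars, and filled points have an adjusted p below 0.05 in edgeR's test. The Bcl2a1 genes (3.90 and 4.41) and Bbc3 (-3.26) lie farthest from 0 in Ag against Naive, and Mcl1 (-1.48) and Bak1 (1.24) in Ag+Costim against Ag.

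Transcripts within a gene were compared as shares of the gene's counts in Ag+Costim against Ag. In all, 9 transcripts of 4 members entered the test. Bcl2 passed, with its pair of complementary transcripts entered as separate tests. Its transcript Bcl2-201, with a coding length of 708 bases, held 67.0%, 70.2%, 68.2%, 65.2% and 74.2% of the counts in Ag and 78.4%, 77.4%, 79.6%, 78.1% and 80.3% in Ag+Costim. The remainder was Bcl2-202, with a coding length of 597 bases. Every Ag+Costim library lay above every Ag library, with a mean difference of 9.78 percentage points (exact permutation test, p = 0.00794, the smallest that 5 against 5 libraries can give, adjusted p = 0.0357). The Naive libraries held 71.4% and 67.7%. The values of the pair of transcripts are complementary and count as 1 result, but both entered the adjustment. Entered once, the pair would not have passed. When 1 library was left out, the difference was 8.84 to 11.1 points. The pair passed without Ag 4, where Bax-205 passed too, and in none of the 9 other cases. With 5 against 4 libraries, a pair alone at the smallest p of the exact permutation test has an adjusted p of 0.0714. It cannot pass, so these cases say nothing about stability.

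Bcl2l11-205, which has the coding length of the extra-long form of BIM (588 bases), held 73.0% to 91.4% of the Bcl2l11 counts in Ag and 53.3% to 76.4% in Ag+Costim (exact permutation test, p = 0.0397, adjusted p = 0.119). Bcl2l11-203, with a coding length of 420 bases, held 4.01% to 21.7% and 7.35% to 35.4% (exact permutation test, adjusted p = 0.243). In Naive, Bcl2l11-205 held 81.4% and 50.0%, so these libraries spanned most of that range. Bcl2l1-201 and Bcl2l1-202, with the same coding length of 699 bases, and the 3 Bax transcripts did not pass either, with adjusted p from the exact permutation test of 0.143 or more.

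**Figure D4:**
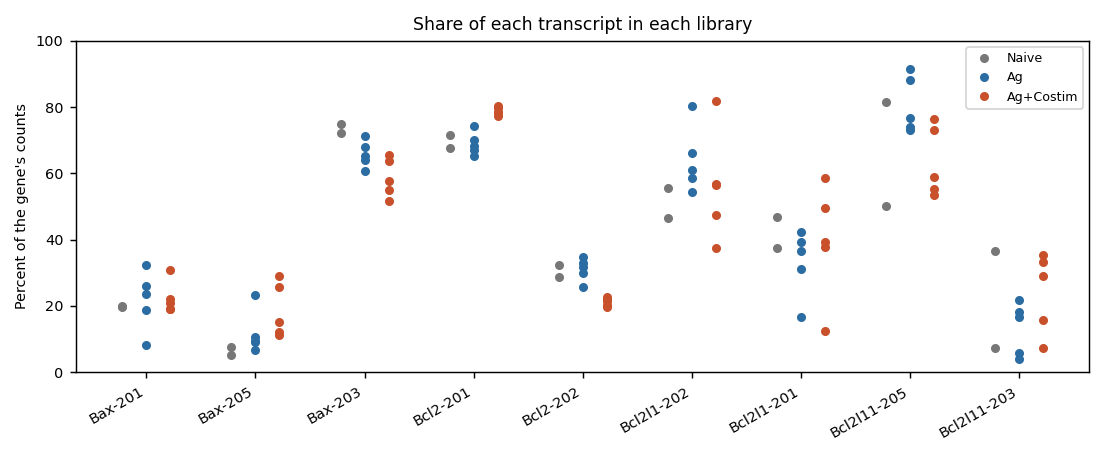
Points give the percent of a gene's counts (y axis, 0 to 100) assigned to each of 9 transcripts (x axis) in each library, coloured by group. For Bcl2-201 and Bcl2-202 the Ag and Ag+Costim points do not overlap, and for the transcripts of Bax, Bcl2l1 and Bcl2l11 they do.

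Psi values were deposited for 41 nodes of 8 members, and 7 nodes of 2 members differed by 0.1 or more between the groups. With 1 value per group, these have no replicate check. In Bcl2l11, a node of 168 bases (chromosome 2, 128128757 to 128128924) that is retained in the 588-base and spliced out in the 420-base coding sequence had a Psi of 37.9% in Ag and 49.3% in Ag+Costim. This direction is opposite to that of the shares of Bcl2l11-205 and Bcl2l11-203. An alternative last exon (128129637 to 128131495) had 16.8% and 28.4%, and a node of 267 bases that stops where Bcl2l11-203 stops (128160962 to 128161228) had 0.226% and 10.5%. The remaining pair of Bcl2l11 nodes mark start sites 1 base apart. In Bcl2l1, the end node at 152780672 to 152782282 had 43.7% in Ag and 3.803% in Ag+Costim, and the end node of 4 bases beside it had 56.2% and 96.2%. These Bcl2l1 ends lie 4 bases apart, and within Ag+Costim the count share varied from 12.3% to 58.6% for Bcl2l1-201 and from 37.4% to 81.7% for Bcl2l1-202. In Bcl2, the node of 1095 bases at the start of Bcl2-201 had a Psi of 28.6% in Ag and 20.2% in Ag+Costim, and the start node of Bcl2-202 had 71.4% and 79.7%. These differences stayed under 0.1 and run opposite to the count shares of Bcl2-201 and Bcl2-202, so the 2 deposited measures of Bcl2 transcript use do not point the same way.

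The other genes of the pathway were counted by list, and each count stands beside the 24.2% of all genes called higher and 22.5% called lower in Ag against Naive, and the 26.6% and 26.5% in Ag+Costim against Ag. Of 14 further BCL-2 family genes, 10 were tested. In Ag against Naive, 4 rose and none fell, among them Bcl2a1a (log2 fold change 4.22), Bad (1.08), Bid (0.66) and Bcl2l12 (0.60), and the adjusted p of the other 6 was 0.05 or more. In Ag+Costim against Ag, 1 rose and 3 fell: Bcl2l13 (0.98), Bcl2l14 (-1.98), Bad (-0.88) and Bcl2l12 (-0.56). BID and BAD are BH3-only proteins, BID being the one that caspase-8 cleaves. Bad measured 26.9 ± 3.56 CPM in Naive (SD, n = 2), 57.0 ± 5.45 in Ag (SD, n = 5) and 31.0 ± 4.64 in Ag+Costim (SD, n = 5). The median log2 fold change of the list was 0.84 in Ag against Naive and -0.63 in Ag+Costim against Ag.

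Among 19 genes of the apoptosome, the caspases and their inhibitors, 10 rose and 5 fell in Ag against Naive, and 8 rose and 5 fell in Ag+Costim against Ag, with medians of 0.49 and 0.14. Birc5, which encodes survivin and is also a gene of dividing cells, had a log2 fold change of 5.14 in Ag against Naive. Birc6, an inhibitor of apoptosis, was lower in Ag than in Naive (-1.95) and higher in Ag+Costim than in Ag (1.15). Vdac1, a channel of the outer mitochondrial membrane, rose by 2.96 in Ag+Costim against Ag, and Apaf1, the scaffold of the apoptosome, by 1.22. The proliferation genes given above moved with the same groups, and their part in these values was not tested.

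Of 13 genes of the death receptor pathway, 6 rose and 3 fell in Ag against Naive, and 4 rose and 5 fell in Ag+Costim against Ag, with medians of -0.14 and 0.04. Fasl, the ligand of Fas, was higher in Ag than in Naive (2.20) and higher in Ag+Costim than in Ag (0.95). It measured 5.74 ± 1.36 CPM in Naive, 26.4 ± 7.33 in Ag and 50.9 ± 9.97 in Ag+Costim. The adaptor Fadd was lower in Ag than in Naive (-1.24) and higher in Ag+Costim than in Ag (1.33). Tnfrsf1b, a receptor for TNF, rose by 1.43 and Tnf fell by 0.75 on the log2 scale in Ag+Costim against Ag. Tnfrsf1b (0.81) and Tnf (1.26) were both higher in Ag against Naive. In Ag+Costim against Naive, Tnfrsf1b (2.24) and Tnf (0.50, edgeR's adjusted p = 0.0485) were higher. Of 10 genes that act on the turnover of MCL-1 and BIM, 5 rose and 4 fell in Ag against Naive, and 6 rose and 2 fell in Ag+Costim against Ag, with medians of 0.08 and 0.60. Fbxw7 (0.80), a ubiquitin ligase subunit for MCL-1, and Usp9x (0.76), a deubiquitinase for MCL-1, rose together in Ag+Costim against Ag, and Mapk3 (1.74), the ERK1 kinase, which phosphorylates BIM, rose as well, while Btrc fell (-0.68). In Ag against Naive, Usp9x (-1.01) and Mapk3 (-1.07) were lower and Btrc (0.58) was higher, and Fbxw7 did not pass (-0.30, edgeR's adjusted p = 0.288). In Ag+Costim against Naive, Mapk3 was higher (0.67), and Usp9x (-0.25, edgeR's adjusted p = 0.392), Fbxw7 (0.50, edgeR's adjusted p = 0.0800) and Btrc (-0.10, edgeR's adjusted p = 0.603) did not pass.

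Among 20 known upstream regulators, 6 rose and 4 fell in Ag against Naive, and 6 rose and 6 fell in Ag+Costim against Ag, with medians of 0.06 and 0.02. Il7r, the receptor chain through which IL-7 maintains Bcl2, fell from 568 ± 59.7 CPM in Naive to 106 ± 14.6 in Ag (log2 fold change -2.43). Tnfrsf9, which encodes CD137, rose in Ag against Naive (4.10), and Tnfrsf4, which encodes CD134, measured 1.41 ± 0.240 CPM in Naive and 7.53 ± 2.95 in Ag (2.42, edgeR's adjusted p = 0.0296). In Ag+Costim against Ag, the forkhead factors Foxo1 (-2.05) and Foxo3 (-1.95) and the stress factor Ddit3 (-2.11) fell. Ddit3 is uncertain, since another annotated gene of that name overlaps it on the same stretch. Foxo1 measured 159.6 ± 9.94 CPM in Naive, 226 ± 30.6 in Ag and 54.4 ± 5.33 in Ag+Costim. Trp73 was at 0 in all 7 Naive and Ag libraries and at 0.730 ± 0.439 CPM in Ag+Costim (SD, n = 5). In Ag+Costim against Naive, the other family genes, the caspase list, the death receptor list, the turnover list and the regulators had 3, 9, 4, 5 and 5 genes called higher and 1, 3, 1, 2 and 4 called lower, beside 26.9% and 25.4% of all genes.

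FOXO proteins are known to bind DNA with the letters GTAAACA and to act on Bcl2l11 and Bbc3, so these letters were searched on both strands in the 250 bases before each RefSeq gene start (GRCm38.p6). Entries existed for 9 of the 10 members, with 14 starts. The letters occurred before 3.17% of 32851 starts of all genes and, among the members, before 1 start each of Bcl2l11 and Bbc3. The upstream bases of these starts are printed 5′ to 3′ on the gene's strand, with the match in capitals, for Bcl2l11 chr2:128125788-128126037 (+) and for Bbc3 chr7:16310011-16310260 (+).
Bcl2l11: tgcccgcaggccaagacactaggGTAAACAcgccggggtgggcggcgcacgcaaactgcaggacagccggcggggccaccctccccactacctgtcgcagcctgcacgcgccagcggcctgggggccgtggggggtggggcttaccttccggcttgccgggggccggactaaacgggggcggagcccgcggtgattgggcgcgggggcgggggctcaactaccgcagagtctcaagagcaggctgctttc
Bbc3: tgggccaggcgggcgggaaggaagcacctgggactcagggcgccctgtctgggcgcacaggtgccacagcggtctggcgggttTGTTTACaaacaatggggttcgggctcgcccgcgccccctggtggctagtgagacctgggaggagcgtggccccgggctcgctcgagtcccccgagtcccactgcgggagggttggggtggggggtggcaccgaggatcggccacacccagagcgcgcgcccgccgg
The match starts 227 bases before the Bcl2l11 start on its own strand and 167 bases before the Bbc3 start, where it reads on the other strand. The letters of the κB motif (GGGA, any base, then TTTCC) were found before 0.356% of all starts and in none of the 14 windows of the members. A match is a description of the sequence and not a measured site. Bcl2l11 and Bbc3 differed in these libraries: Bbc3 was low in both antigen groups, and Bcl2l11 was low in Ag+Costim.

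For 4 members, the genes of most similar pattern were ranked by the root mean square difference of log2 CPM, centred on each gene's mean, over the 12 libraries among 9237 genes. Nearest to Bcl2 were Klf3 (0.192), Fbxl12 (0.201) and Klf7 (0.215). Nearest to Bcl2l1 were Rnpep (0.1399), Cdc25b (0.147) and Cs (0.158), and nearest to Bcl2l11 were H2-K1 (0.139), 1810043G02Rik (0.141) and Arhgef12 (0.1596). Nearest to Bcl2a1b were its copy Bcl2a1a (0.268), Ctse (0.2695) and Casp1 (0.285). The libraries are shared by all of these genes, and the distances are descriptions.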

How the data were processed

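Transcripts were compared in 12 libraries of CD8+ T cells, grouped by their sample labels as Naive (n = 2), Ag (n = 5) and Ag+Costim (n = 5). Single reads of 100 bases had been aligned by the authors to mm10 (HISAT2 2.1.0). The authors sorted them with SAMtools 1.9 and quantified them with StringTie 2.1.0. They deposited estimated counts per gene and per transcript, which StringTie derives from coverage and rounds to whole numbers, without normalization. The deposited FPKM values come from StringTie, 1 per transcript, and were summed here per gene name. Psi, deposited as 1 fraction per node and group, is Whippet's estimate of how often transcripts include the node. The differences and probabilities in the same table are the study's own comparison and were not used. A deposited core facility sheet lists each library's read count and percent aligned. Whether counting used strand is not given in the sources used here.

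Of 81881 entries of the gene count table, 55536 were matched to GENCODE vM21 (GRCm38). The other 26345 are unannotated loci, which held 0.0508% to 0.121% of a library's counts, and they were left out. Differences in counts were tested in edgeR 4.0.16 (R 4.3.3) by the robust quasi-likelihood test, two-sided, with TMM scaling, filterByExpr, 1 term per group over all 12 libraries and Benjamini-Hochberg adjustment over 18817 genes. Genes were called at an adjusted p below 0.05. The study used DESeq2 1.30.1, and DESeq2 was an alternative here. Standard errors were derived from the F statistic, and 95% intervals use the t distribution on 9 residual degrees of freedom. CPM values use TMM library sizes. Transcript shares were compared by exact permutation tests (scipy 1.17.1), two-sided, over 252 arrangements of the libraries, for genes with at least 2 transcripts at a mean share of 10% or more in either group.

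The members and lists were chosen with earlier results of these data known. All 10 members were named in every comparison. In each list, at most 4 called genes with the largest log2 fold change in size were named. Some genes of the lists are not reported here. For 4 members, the 3 genes of most similar pattern were named among genes with a mean log2 CPM above 3 (prior count 2). These steps were tested on simulated data for Ag+Costim against Ag. With 200 of 18817 genes shifted by 1 on the log2 scale, 107 were recovered, and 6 unchanged genes were called. The recovery first required of this test was higher and was lowered after this result was seen. Among those above a log2 CPM of 3, a split chosen after seeing this, 100 of 116 were recovered. Alternatives were other scalings, no filter on low counts, a length offset, a covariate for Y-linked transcripts, a replicate block, fits of only the groups compared, DESeq2, limma 3.58.1 on log2(FPKM + 1) and log2(FPKM + 0.1) with a filter at 0.5 FPKM or without, summed Bcl2a1 copies and leaving out each library. Floors cover counting error only.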

Additional observations from a re-analysis of the deposited data

Results flagged for a closer look

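In 78 groups of 5 libraries, covering the CPM and FPKM of the members, the transcript shares and the marker sums, the highest and lowest library were examined for a gap to the others, which chance alone gives in about 1 of 20 groups. Of the CPM values of the members, none stood apart. Bcl2 in FPKM was 26.5 in Ag 4, with the nearest Ag library at 20.6 and the lowest at 18.6. Bax-205 held 23.3% of the Bax counts in Ag 4, with the nearest at 10.6% and the lowest at 6.585%. Bax-201 held 30.8% in Ag+Costim 5, with the nearest at 21.96% and the lowest at 19.0%. Ag 4 has the fewest counts of the 12 libraries, the highest erythroid sum and 21618 CPM of mitochondrial transcripts, where the other Ag libraries had 7113 to 12087. Without Ag 4, the 7 members called in Ag+Costim against Ag were still 7.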

How the results depend on the processing

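Each comparison was repeated in 11 other settings (12 for the Bcl2a1 copies) and without each of the 12 libraries. Bcl2, Mcl1, Bcl2a1b, Bcl2a1d, Bbc3 and Pmaip1 kept their calls in Ag against Naive in all of these, as did Bcl2, Bcl2l1, Mcl1, Bcl2a1b, Bcl2l11, Pmaip1 and Bak1 in Ag+Costim against Ag. Members called ranged from 7 to 9, 7 to 8 and 9 to 10 over the other settings and from 6 to 8, 7 to 7 and 7 to 10 without 1 library, in the order of the report. Without 1 library, the genes called ranged from 5713 (without Naive 2) to 9569 in Ag against Naive.

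The sign of values that did not pass the test turned in some settings. For Bax in Ag+Costim against Ag, the log2 fold change was -0.0020 with RLE scaling, -0.19 with upper-quartile scaling, -0.0093 with the Y-linked covariate, -0.019 with only these groups and -0.0091 in log2(FPKM + 1), log2(FPKM + 0.1) and unfiltered FPKM. Without 1 library it ranged from -0.040 to 0.049. For Bcl2l11 in Ag against Naive it was -0.00055 at a pseudocount of 1, filtered or not, and -0.0013 at 0.1. With the length offset, Bcl2a1d (0.15) and Bbc3 (0.078) turned positive in Ag+Costim against Ag, and without 1 library Bcl2a1d ranged from -0.15 to 0.015. The causes were not tested. Replicate numbers of Ag and Ag+Costim match in whether Y-linked transcripts are present, but no label ties same-numbered libraries to a shared source, and the correlations of their deviations were 0.0159 to 0.0952, and 3 of 5 libraries correlated best with their own number. With a replicate block, 8, 7 and 9 members were called, and 7915, 9736 and 9078 genes. The block took away the Bak1 call in Ag+Costim against Naive (0.66, adjusted p = 0.158).

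For transcript shares, 2 transcripts passed, the complementary Bcl2 pair entered as separate tests. With shares per length or a limit of 5% the number was 3, and with 20% it was 2. Without 1 library the number was 0 to 3. With 5 against 4 libraries a pair alone at the smallest p has an adjusted p of 0.0714 and cannot pass, so its loss says nothing about stability. Without Ag 4, Bax-205 (9.67 points) and the Bcl2 pair passed together. The Bax-201 difference ranged from -2.85 to 3.19 points. On counts per kilobase of exons, 19 of the 30 ranks of the members were kept, and 22 of 30 percentages of the pro-survival and BH3-only sums, tried after seeing the data, moved by more than 1 SD. In FPKM, the share of calls that were higher was 41.0% in Ag+Costim against Naive, where counts gave 51.5%. Bak1, at 55 to 257 counts per library, had the widest intervals, and the cause was not tested.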
